A study of Homo sapiens and Mus musculus with 5 samples.

Results

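The alleles described here are the 33 alleles of reporter fragments whose RNA stayed below their plasmid input in all 11 RNA libraries of a STARR-seq experiment on common variants linked to schizophrenia. They were drawn from 1378 alleles that were listed in the tables of all 4 cell lines with a mean input of 500 counts or more, out of 1625 alleles listed in any of the tables. They were selected on the RNA over input ratio. For each library, counts scaled to a common total (CPM) were taken over all alleles of its table, and the log2 ratio of RNA CPM to mean input CPM had to be below -0.5 with no RNA count of 0. This rule took 2.39% of the eligible alleles. Because that ratio chose them, it is given below as a description without a test.

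In STARR-seq a candidate fragment is cloned into the transcribed part of a reporter gene, so the RNA made from the plasmid carries the fragment itself. The share of a fragment in the RNA over its share in the plasmid pool reads how much transcript each plasmid copy gave. Enhancers raise this ratio, and fragments that hold transcription down, called silencers, lower it. The SNPs of such panels mostly lie in non-coding DNA, where a change of base can alter how a regulatory element works.

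The pool was transfected into the neuroblastoma lines Neuro-2a, from mouse, and SH-SY5Y, from human, into human kidney cells (HEK-293T) and into PC-12, which derives from a rat pheochromocytoma although its sample record says mouse. None of the groups had a further treatment or genotype in the labels, and plasmid DNA sequenced before transfection served as the common input. RNA replicates 1, 2 and 3 were used for the first 3 lines and replicates 1 and 3 for PC-12, with 3 input libraries. The protocols describe the RNA replicates as biological ones, so p-values measure the spread between these libraries. The main fits took all libraries as independent, although same-numbered RNA libraries of different lines deviated together. Their p-values and SEs do not allow for this. The input libraries belong to a single plasmid sample. RNA libraries held between 5875437 and 10201521 counts, and the median eligible allele had 4060.5 input counts. A SNP could be tested in up to 3 fragments, in which it sat behind 50, 100 or 150 bases and ahead of the remaining 150, 100 or 50. Alleles are numbered as in the tables, and the bases of the fragments were not used here. Genes are those of GRCh38.p14 at the stated position, which is correct only if the tables use that build.

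The 33 alleles came from 32 fragments of 32 SNPs, so that a single fragment, at position 64952689 of chromosome 4, contributed both of its alleles. Of the 33, 10 had 100 bases on each side of the SNP, 13 had 150 in front and 10 had 50 in front, against 34.2%, 33.7% and 32.1% of the eligible alleles. Allele 1 was listed 20 times and allele 2 13 times, against 47.5% and 52.5% of the eligible alleles. Of the 32 alleles with a chromosome position, 23 lay inside a protein-coding gene, which is 71.9% against 66.8% of eligible alleles with a position. They were spread over 16 chromosomes, with 5 on chromosome 2 (15.6% of those with a position, against 9.81% of eligible alleles) and 4 on chromosome 4 (12.5% against 1.93%), of which 2 are the alleles of 1 fragment.

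Together the 33 alleles made up between 3.93% and 4.05% of the input reads, depending on the table, and between 0.758% and 1.66% of the RNA reads of a library. The lowest share was in SH-SY5Y replicate 3 and the highest in Neuro-2a replicate 1. The median over the 11 libraries was below -3 for 8 alleles, between -3 and -2 for 4 and above -2 for 21, with a median of -1.88 over the 33 and of -0.25 over all eligible alleles. The median eligible allele thus also lay below 0 on this scale. With each library centred on its median eligible allele, 20 of the 33 stayed below -0.5 in all libraries and all 33 stayed below 0.

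The lowest of the set was allele 1 at 102730805 on chromosome 4, with 100 bases on each side. This SNP lies inside MANBA, the gene of lysosomal beta-mannosidase, which cleaves mannose from glycoprotein glycans. Its input counts were 19982, 16091 and 21081, and its RNA counts ranged from 210 to 1378. The log2 ratios were -5.69, -5.03 and -5.01 in Neuro-2a, -5.53, -5.36 and -5.52 in SH-SY5Y, -5.80, -3.86 and -5.22 in the HEK-293T libraries and -6.57 and -4.60 in PC-12. The SH-SY5Y libraries lay closest together, and at the median of -5.36 the input share was 41.0 times the RNA share.

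PLCL1, a phospholipase C-like gene whose product binds receptors and phosphatases without hydrolysing lipid, held the next pair, 106.8 kb apart. Its allele 1 at 198058744 on chromosome 2, with 50 bases in front, stood at -2.77, -2.37 and -2.75 in Neuro-2a, -4.01, -3.92 and -4.03 in SH-SY5Y, -5.49, -6.95 and -4.54 in the HEK-293T libraries and -3.92 and -4.44 in PC-12. The libraries of Neuro-2a were thus all higher than those of the other 3 lines, and those of HEK-293T were all lower. Allele 1 at position 197951938, with 150 bases in front, gave -1.60, -3.76 and -3.67 in Neuro-2a, -3.54, -3.12 and -5.21 in SH-SY5Y, -2.25, -3.71 and -4.31 in the HEK-293T libraries and -2.36 and -5.33 in PC-12. Here the lines overlapped, and the highest 3 of the 11 values were replicates 1 of Neuro-2a, HEK-293T and PC-12. Another allele of the region, allele 1 at position 199951659 in TYW5, which encodes a hydroxylase that modifies tRNA, was among the weakest of the set, with a median of -1.08.

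MAU2, whose product loads cohesin onto chromatin, also held 2 SNPs of the set, 17.8 kb apart on chromosome 19, both with 150 bases in front. For allele 1 at position 19329257 the ratios were -1.13, -1.92 and -3.02 in Neuro-2a, -3.99, -4.72 and -5.05 in SH-SY5Y, -2.55, -3.14 and -6.50 in the HEK-293T libraries and -3.48 and -4.84 in PC-12. All SH-SY5Y values were lower than all Neuro-2a values, while HEK-293T spanned most of the range of the lines. Allele 2 at position 19347099 was less low, from -2.53 to -0.59 with a median of -1.11.

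Allele 1 at 105018457 on chromosome 6, with 50 bases in front, lies in LIN28B, an RNA-binding protein gene that blocks maturation of let-7 microRNAs. It stood at -1.37, -3.46 and -2.20 in Neuro-2a, -4.93, -3.73 and -4.90 in SH-SY5Y, -2.16, -8.00 and -3.46 in the HEK-293T libraries and -2.85 and -2.42 in PC-12. The value of -8.00 came from 52 counts, against 2323 and 1094 in the other HEK-293T libraries. Its input counts, 16250, 6305 and 16580, also varied more than those of any other allele of the set.

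Also with a median below -3 were allele 2 at position 23189265 of chromosome 3, 13.8 kb from the ubiquitin-conjugating enzyme gene UBE2E2, and allele 1 at position 110782105 of chromosome 1, 89.1 kb from the leukocyte tetraspanin gene CD53. The allele near UBE2E2 ranged from -4.16 to -1.20 and the one near CD53 from -7.36 to -1.49. Of the 363 RNA values of the 33 alleles, 6 were under 100 counts, in 5 alleles.

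Between -3 and -2 lay allele 2 at position 22767165 of chromosome 9, 311.4 kb from the transcription factor gene DMRTA1, allele 2 at position 152943676 of chromosome 5, 538.4 kb from the neuromedin U receptor gene NMUR2, allele 1 at position 41974987 of chromosome 22 in SEPTIN3, which encodes a septin of neurons, and allele 1 at position 138556481 of chromosome 5 in HSPA9, which encodes a mitochondrial Hsp70 chaperone. Their medians were -2.70, -2.41, -2.27 and, for HSPA9, just past -2. In SEPTIN3 the values were -0.69, -1.41 and -1.31 in Neuro-2a, -4.07, -2.35 and -4.25 in SH-SY5Y, -2.12, -0.95 and -2.73 in the HEK-293T libraries and -2.27 and -2.95 in PC-12, so that Neuro-2a and SH-SY5Y did not overlap. In HSPA9 a single library stood apart: PC-12 replicate 3 was at -6.14, from 224 counts, while the other 10 lay between -3.35 and -0.94.

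The 21 alleles with a median above -2 ranged down to -7.50 in single libraries. That value belonged to allele 1 at position 57980939 of chromosome 2 in VRK2, a serine/threonine kinase gene, whose Neuro-2a libraries read -6.96, -7.50 and -2.92 while the 8 libraries of the other lines lay between -2.71 and -0.90. Neuro-2a was therefore lower than every library of the other lines for this allele. The opposite was seen in ITIH1, which encodes a heavy chain of the inter-alpha-trypsin inhibitors of plasma. Its allele 1 at position 52781889 of chromosome 3 stood at -1.42, -0.61 and -1.04 in Neuro-2a, -1.74, -3.04 and -3.54 in SH-SY5Y, -1.85, -2.95 and -2.87 in the HEK-293T libraries and -1.84 and -1.37 in PC-12, so that Neuro-2a overlapped with PC-12 alone.

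Other alleles of this group sat in genes of ion transport, the cytoskeleton and DNA repair, among others. Medians were -1.90 in CNNM2, a magnesium transport gene on chromosome 10, and -1.45 in ATP2A2, the gene of the sarco/endoplasmic reticulum calcium pump. FRMD5, a FERM domain gene, gave -1.91 from the lowest input of the set, 2379.3 counts. MPHOSPH9, a gene of a centrosomal phosphoprotein, gave -1.89, and ANKRD45, an ankyrin repeat gene, -1.88. Medians in FANCA, a Fanconi anaemia DNA repair gene, GYPB, the glycophorin B gene of red cells, and HAT1, a histone acetyltransferase gene, were -1.72, -1.69 and -1.43. The 2 alleles near the weak end besides TYW5 were in SPECC1, a coiled-coil protein gene, at -1.08 and in MSRA, which encodes a methionine sulfoxide reductase, at -1.04.

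Outside genes, allele 1 at position 20712376 of chromosome 21, 286.0 kb from the neural adhesion gene NCAM2, had a median of -1.75, allele 2 at position 163708219 of chromosome 1, 352.5 kb from the kinetochore gene NUF2, -1.55, and allele 2 at position 11987848 of chromosome 6, 19.8 kb from the zinc finger gene HIVEP1, -1.24. Allele 1 of rs12083902, for which the tables give no position, stood at -1.33. The chromosome 4 fragment with both alleles in the set lies 366.9 kb from EPHA5, an ephrin receptor gene, and carried 50 bases in front. Allele 1 ranged from -2.66 to -0.89 and allele 2 from -1.97 to -0.79, with medians of -1.58 and -1.48. Allele 1 was lower than allele 2 in 7 of 11 libraries, so their values overlapped.

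None of 30 eligible alleles in transcription factor and chromatin genes and none of 7 in voltage-gated calcium channel genes was in the set, and their medians were 0.11 and -0.21, against -0.25 for all eligible alleles. With 2.39% of eligible alleles taken, counts of 0 in lists of this size are near the background.

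Close to the limit, the highest library was at -0.52 for the FANCA allele, -0.51 for the TYW5 allele and -0.52 for the SPECC1 allele. Just outside it were 6 alleles with a highest value between -0.50 and -0.45. These included the opposite allele of the NMUR2 fragment, at -0.46 in HEK-293T replicate 2, and a fragment in GYPB with 150 bases in front, at -0.50 in the same library. A further 40 alleles were below -0.5 wherever they had counts but had a count of 0 in at least 1 library, 24 of them in 2 or more. With a count of 0 taken as below the limit, 73 alleles, 5.3% of those eligible, would have been taken.

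Alleles of the set were abundant in the input. Their median input was 8943.3 counts, and 30 of 33 were above the eligible median. Across 4 equal groups of eligible alleles by input, from low to high, the set held 0, 3, 9 and 21 alleles. With counts of 0 allowed the numbers were 3, 14, 20 and 36. In the same order, 46.4%, 29.7%, 14.0% and 10.1% of eligible alleles had an RNA count of 0 in some library, which removes an allele from the set, and the medians of all eligible alleles were -0.16, -0.20, -0.25 and -0.35. Input is also the denominator of the ratio, and its part in the choice of alleles was not tested.

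In each line, replicate 1 was the library in which the set lay nearest to the input. The median over the 33 alleles in replicate 1 was -1.13 for Neuro-2a, -1.74 for SH-SY5Y, -1.24 for HEK-293T and -1.69 for PC-12, and between -2.61 and -1.75 in the other 7 libraries. The highest of the 11 values was in a replicate 1 library for 25 of 33 alleles. This was also so for 68.3% of 278 other eligible alleles that had no count of 0 and a median below -0.5, which is close to the 75.8% of the set. Within a line of 3 libraries, the SD of an allele exceeded 1 in at least 1 line for 14 of the 33.

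Line means were first compared on the RNA over input ratio that chose the set. They rest on 2 libraries for PC-12 and 3 for each other line. On that ratio SH-SY5Y had the lowest mean for 15 of 33 alleles and the highest for 0, and Neuro-2a had the highest for 19. Among the 278 other low alleles, SH-SY5Y was lowest for 21.6% and Neuro-2a highest for 25.2%. The range of an allele's 4 line means had a median of 0.95, from 0.21 for the TYW5 allele to 4.68 for the VRK2 allele, against a median of 0.86 for the other low alleles. A difference between lines was tested on RNA counts alone, where the shared input drops out. The rule drew on these same RNA libraries and left out alleles that were high in any line. A lack of calls in the set therefore does not show that the lines were alike. No allele of the set passed edgeR's quasi-likelihood test at a Benjamini-Hochberg adjusted p of 0.05, and 0% of the 1436 alleles tested passed. At an unadjusted p under 0.05 there was 1 of 33, against 2.79% of all alleles. Limma-voom called 0 of 33 and 0% of all alleles. DESeq2 called 0, with no adjusted p for 24 of the 33, where it called 2.8% of the 821 alleles with one. Without replicate 1 of every line edgeR called 0 of 33 and 0.0696% of all alleles.

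The 5 alleles with the smallest p for a difference between lines were those in ITIH1 and SEPTIN3, the weaker MAU2 allele, the HAT1 allele and the stronger MAU2 allele. Relative to the mean of the 4 lines, RNA of the ITIH1 allele was higher in Neuro-2a (0.97) and PC-12 (0.34) and lower in SH-SY5Y (-0.69) and HEK-293T (-0.62) on the log2 scale, with an unadjusted p of 0.0350 by edgeR. For SEPTIN3, Neuro-2a stood at 1.08, SH-SY5Y at -1.08, HEK-293T at 0.40 and PC-12 at -0.40, with an unadjusted edgeR p of 0.0537. For the stronger MAU2 allele these were, in the same order, 1.61, -1.07, 0.02 and -0.56, with an unadjusted edgeR p of 0.0793. Neuro-2a was the highest line for all 5, and each had an adjusted p of 1.00. The 5 were picked by their p from alleles chosen on these same RNA libraries. Their shared direction was not tested.

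The opposite allele of the same fragment differs from a member at the SNP and shares the rest of its sequence. Besides the chromosome 4 pair, 19 members had an opposite allele in all 4 tables, 6 had one in some tables and 6 in none. With a count of 0 taken as below the limit, 6 of the 19 opposite alleles were below -0.5 in all 11 libraries, against 5.08% of the 1436 alleles in all tables. Below -0.5 in at least 8 libraries were 13 of 19, or 68.4%, against 20% of all alleles. Both shares of all alleles include the 33 members, which cannot be among the 19. The 6 were opposite to the members near UBE2E2, CD53, DMRTA1 and NCAM2 and those in PLCL1 at position 197951938 and in TYW5. Each had 1 to 3 libraries at 0, as it had to, since with no count of 0 it would itself be a member.

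Near UBE2E2 the opposite allele stood at -2.15, -4.53 and -1.82 in Neuro-2a, -2.38, -3.57 and -4.09 in SH-SY5Y, -2.12, -1.63 and -3.64 in the HEK-293T libraries and -3.40 and a count of 0 in PC-12. The 2 alleles overlapped, and the member was the lower one in 6 of 10 libraries with counts. Near CD53 the opposite allele likewise stood between -7.47 and -1.46 with 0 counts in SH-SY5Y replicate 1, and the member was lower in 6 of 10 libraries. Near NCAM2 the member was lower in 0 of 8 libraries, so its partner, at 0 counts in 3 libraries, was the lower of the pair.

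Tested over the mean of the 4 lines against the input, 1 of the 19 opposite alleles passed edgeR's quasi-likelihood test below the input after Benjamini-Hochberg adjustment, where 2.16% of all alleles did, and 0 passed above it, where 2.58% of all alleles did. It was allele 1 of the NMUR2 fragment, at -0.89 ± 0.19 (SE, 11 RNA and 3 input libraries) and an adjusted p of 0.0262, which is named here because it was the only call. Its 11 CPM ratios lay between -1.91 and -0.46, below 0 in each library and above the member in each. Of the 19, 4 had an unadjusted p under 0.05 below the input, against 7.24% of all alleles. Limma-voom called 9 of 19, where it called 7.31% of all alleles, DESeq2 called 3, where it called 5.4%, and edgeR with replicate number as a block called 2, where it called 7.03%. Without any 1 of the input libraries the edgeR call was lost, with an adjusted p between 0.135 and 0.166.

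The lowest joint estimates among opposite alleles were -3.02 ± 1.07 near CD53, -2.91 ± 0.97 near UBE2E2, -2.60 ± 1.63 near NCAM2, -2.41 ± 1.10 near DMRTA1 and -2.11 ± 1.69 in PLCL1. Their edgeR adjusted p lay between 0.111 and 0.543, so none passed. At the other end were ATP2A2 at 2.25 ± 1.08, ANKRD45 at 1.13 ± 0.87, rs12083902 at 0.53 ± 1.31, HSPA9 at -0.21 ± 0.37 and SPECC1 at -0.28 ± 0.24, with edgeR adjusted p from 0.255 to 0.891.

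Among the 19 pairs listed in all 4 tables, ATP2A2 gave the widest gap of member minus opposite allele, a median of -3.47. Allele 2 stood at -0.37, 2.04 and 3.20 in Neuro-2a, -0.73, 2.61 and 2.41 in SH-SY5Y, -0.61, 3.15 and 1.60 in the HEK-293T libraries and -0.47 and 2.59 in PC-12. In each line replicate 1 was below the input and the other replicates were above it. Allele 2 had a mean input of 916.7 counts against 12261.7 for allele 1, and those in ANKRD45 and of rs12083902, the other 2 with a positive joint estimate, were also rare, at 633.7 and 711.3. Over the 19 pairs the median difference of member minus opposite allele was -0.59, and the member was lower in every library with counts for 3 pairs, those in ATP2A2 and HSPA9 and the one near NMUR2. Since members were chosen for being low, these differences carry no test.

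For the 6 members whose opposite allele was in some tables only, that allele was below -0.5 wherever it had counts in MANBA, the PLCL1 SNP at position 198058744 and LIN28B, and, outside Neuro-2a, for the stronger MAU2 SNP. In MANBA allele 2 gave 0 counts, -7.55 and -3.72 in Neuro-2a, -8.52, -7.37 and -6.08 in the HEK-293T libraries and -5.66 and -4.18 in PC-12. In HEK-293T each of these was lower than each value of allele 1. The PLCL1 partner gave -5.22, 0 counts and -4.12 in the HEK-293T libraries and -3.66 and -1.99 in PC-12. In MAU2 allele 2 gave -1.18, -0.66 and 0.37 in Neuro-2a but -6.60, -5.44 and -5.32 in HEK-293T. The LIN28B partner, listed for PC-12 alone, gave -2.59 in replicate 1 and 0 counts in replicate 3. The partner of the weaker MAU2 allele lay between -1.08 and 0.85, with 0 counts in HEK-293T replicate 2. The VRK2 partner, with 152.0 input counts, reached 4.84 in PC-12 replicate 1 and had 0 counts in replicate 3.

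Moving the SNP within the fragment changes which neighbouring bases are included, and all 32 SNPs had at least 1 other fragment in the tables. These gave 96 alleles in all 4 tables. With a count of 0 taken as below, 6 of the 96, or 6.25%, were below -0.5 in all 11 libraries, against 5.08% of all alleles. Below it in at least 8 libraries were 31, or 32.3%, against 20%. Both shares of all alleles include the 33 members, which cannot be among the 96. Of the 73 alleles behind the 5.08%, 40 are not members. The median of the 96 was -0.33 and that of all 1436 alleles was -0.23. All 6 carried the allele opposite to that of the member. Of the 45 that carried the member's own allele, 0 were below -0.5 in every library. In 44 of these 45 comparisons the member had the lower value at the median library, and in 23 it was lower in every library with counts, a direction set by the choice of members.

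In MAU2 the placements of a single SNP lay on both sides of the input. With 100 bases on each side, allele 1 at position 19329257 stood at 0.73, 0.40 and 0.57 in Neuro-2a, 0.69, 0.62 and 0.78 in SH-SY5Y, 0.75, 0.38 and 0.09 in the HEK-293T libraries and 0.02 and 0.07 in PC-12, all above the input. Placed behind 150 bases, this allele is the member with a median of -3.48. The joint estimate of the centred fragment was 0.63 ± 0.14 with an edgeR adjusted p of 0.0300, and that of allele 2 with 50 bases in front was 1.23 ± 0.28 with an edgeR adjusted p of 0.0315. The first was no longer called with DESeq2 size factors or library totals, with an edgeR adjusted p of 0.0636 and 0.158, nor without SH-SY5Y replicate 2 or PC-12 replicate 3. The second was lost without Neuro-2a replicate 2, SH-SY5Y replicate 2 or 3, or HEK-293T replicate 3. Both were lost without any 1 of the 3 input libraries, with an edgeR adjusted p from 0.169 to 0.223. These were the 2 of 96 other placements called above the input, where edgeR called 2.58% of all alleles.

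Below the input, edgeR called 1 of the 96 other placements, where it called 2.16% of all alleles. It was allele 1 near NMUR2 with 50 bases in front, at -4.33 ± 1.07 and an edgeR adjusted p of 0.0411. Its values were -2.72, -4.12 and -8.81 in Neuro-2a, -4.68, -4.85 and -3.97 in SH-SY5Y, -4.51, 0 counts and -4.38 in the HEK-293T libraries and -4.66 and -4.95 in PC-12. At this SNP both alleles were thus low with 150 bases in front, and allele 1 was low with 50. Allele 2 with 50 bases in front and both alleles with 100 on each side were not in all 4 tables. The call held without Neuro-2a replicate 1 or 3 or HEK-293T replicate 2, and was lost without any other single RNA library, where the edgeR adjusted p reached 0.126 without PC-12 replicate 3, or without any 1 input library. The replicate block gave 6 calls below the input among the 96, where it called 7.03% of all alleles, DESeq2 7, where it called 5.4%, and limma-voom 10, where it called 7.31%. Without replicate 1 of every line edgeR called 14, where it called 13.6%.

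Other low placements were allele 2 in ITIH1 with 100 bases on each side, at -5.30 ± 1.53, allele 2 in PLCL1 at position 198058744 with 100 bases on each side, at -4.35 ± 1.33, and allele 2 in GYPB with 50 in front, at -4.30 ± 1.51. Their edgeR adjusted p were 0.0717, 0.0837 and 0.119, so they did not pass. All had counts of 0 in 2 or 3 RNA libraries and were below -0.5 in the rest. The counts of 0 kept them out of the set. At the high end, 2 placements had a joint estimate above 4 with an input under 500 counts. Allele 1 in ITIH1 with 50 in front had 49, 47 and 54 input counts, 0 counts in replicate 1 of every line and 4243 to 8539 counts in the other 7 libraries, for a joint estimate of 6.60 ± 3.48. In VRK2 allele 1 with 100 on each side had 319, 311 and 360 input counts and ranged from 0 counts to 4.84, for 4.05 ± 1.96. Neither passed, with edgeR adjusted p of 0.304 and 0.260. The next were allele 2 in ANKRD45 with 150 in front, allele 1 in HAT1 with 50 in front and allele 2 in HSPA9 with 150 in front, at 2.46 ± 2.42, 2.43 ± 0.91 and 2.39 ± 0.90, and none of them passed. In HAT1 and HSPA9 the replicate 1 libraries lay between -0.26 and 0.47 and the others between 2.30 and 3.14.

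Over all fragments whose alleles had no count of 0 and were eligible, the medians of the 2 alleles of a fragment correlated at r = 0.31 (n = 276 fragments). The same allele in 2 placements of a SNP correlated at r = 0.16 (n = 556 pairs, in which a SNP can occur more than once). Both are descriptions across fragments that share libraries and input.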

How the data were processed

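The authors deposited raw counts per allele, per the file headers, in 1 table for each line, each with the RNA replicates and the 3 plasmid input libraries. The input counts were identical in the 4 tables for alleles listed in all of them. The submitters' processing notes name limma 3.40.6, and for the aligner, the read filters and the build of the positions the sources used here give no name. PC-12 replicate 2 was not used here. Libraries amplified by PCR without molecular identifiers do not count independent molecules, so depth bounds counting error only.

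RNA over input ratios were computed with Python 3.11.15 as described with the members. Opposite alleles and other placements were tested with the quasi-likelihood test of edgeR 4.0.16 in R 4.3.3 over alleles in all 4 tables with a mean count of at least 10, with TMM scaling, as the mean of the 4 lines against the input, and lines were compared by an F test on RNA alone. P-values were adjusted by Benjamini-Hochberg over all 1436 alleles at 0.05. Each SE was derived from the edgeR test, as the absolute joint estimate divided by the square root of its F statistic. Shares called among all alleles include the 33 members. DESeq2 1.42.0 and limma-voom (limma 3.58.1) were alternatives, as were other scalings, filters, thresholds and left-out libraries. The fits were tested on simulated data. Simulated libraries were drawn independently around the mean count of each allele, with a common dispersion. They lacked the deviations that real same-numbered libraries share, so the simulation does not cover these.

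The members, the lists and the tests were chosen with earlier results of these data known. The rule named all members, the 5 lowest and 5 highest opposite alleles and placements by joint estimate and the 5 members with the smallest p between lines, and some of these are not reported here. Called alleles outside this rule, in MAU2 and near NMUR2, were named after their values were seen. Replicate numbers were taken to pair libraries across lines. The reason was that deviations of same-numbered libraries from their line means correlated above 0.1 in 15 of 15 pairs, from 0.125 to 0.657. Replicates 2 of a line also correlated with replicates 3 of others. For SH-SY5Y replicate 2 this was 0.322 with HEK-293T replicate 3, against 0.211 with HEK-293T replicate 2. The check thus sets replicate 1 apart, but it cannot show that replicates 2 and 3 pair by number. The main fits held no term for this pairing, and only the replicate block modelled it. Genes come from the RefSeq table of GRCh38.p14, which holds no exons.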

Additional observations from a re-analysis of the deposited data

How the results depend on the processing

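The count of members called between lines stayed at 0 under every alternative run. Of all 1436 alleles, the main edgeR fit, limma-voom and the replicate block also called 0, and DESeq2 gave no adjusted p for most members. This count therefore says little about the members. The count of opposite alleles below the input, 1 with edgeR, was 3 with the DESeq2 test, 9 with limma-voom, 0 at an adjusted p of 0.01 and 2 with the replicate block. Leaving out libraries gave 0 to 4: 0 without any 1 input library, 2 without SH-SY5Y replicate 1, PC-12 replicate 1 or PC-12 replicate 3, and 4 without replicate 1 of every line. The count of other placements below the input, also 1, was 7 with the DESeq2 test, 10 with limma-voom, 0 and 5 at adjusted p of 0.01 and 0.1, and 6 with the replicate block. Leaving out libraries gave 0 to 14: 0 without Neuro-2a replicate 2, SH-SY5Y replicate 2 or 3, HEK-293T replicate 1 or 3 or any 1 input library, 2 without SH-SY5Y replicate 1, 3 without Neuro-2a replicate 3 or HEK-293T replicate 2, and 14 without replicate 1 of every line. The cause of these changes was not tested. With limma-voom the joint estimate turned to -0.62 for allele 2 of rs12083902, from 0.53, and to -0.68 for allele 2 in ANKRD45 with 150 bases in front, from 2.46. The size of the set itself moved from 33 to 72, 21 and 8 with limits of -0.25, -0.75 and -1, to 22 with TMM-scaled CPM, to 20 with centred libraries, to 73 with counts of 0 allowed and to 117 without replicate 1 of every line. Without 1 RNA library it was 33 to 49. Of the 363 RNA values of the set, 6 rest on fewer than 100 counts, and the part of depth in them was not tested.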
